A study of Homo sapiens with 4 samples.

Results

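Transcripts of 10 genes of the YAP-TEAD pathway, YAP1, WWTR1, TEAD1, LATS2, CCN1, CCN2, AMOTL1, AMOTL2, ANKRD1 and AXL, were examined in H1299, a human cell line from a non-small-cell carcinoma of the lung. They were chosen as all transcripts that the GENCODE 44 annotation assigns to these gene symbols, which gave 58 of the 227368 transcripts in the deposited tables. Messenger RNA was sequenced in 2 groups: cultures kept for 48 h with HgCl2 at 5 μM, and controls given EtOH, the solvent. The treatment text of the labels names the HgCl2 dose for all samples, whereas the study's methods and the sample titles give EtOH alone to the controls, and the latter is used here. H1299 is 1 tumour-derived line, so the values describe these cultures and no other lung cells.

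The Hippo pathway is a kinase cascade that restrains the transcriptional co-activators YAP (YAP1) and TAZ (WWTR1). Active LATS kinases phosphorylate both co-activators, which are then held in the cytoplasm or degraded, while unphosphorylated YAP and TAZ enter the nucleus and bind TEAD transcription factors. The pathway responds to cell density, cell shape and tension of the actin cytoskeleton, and it acts mostly through protein modification and location, which RNA counts do not measure. CCN1, CCN2, ANKRD1, AXL, AMOTL2 and LATS2 are widely used target genes of YAP and TAZ, and LATS2 and the angiomotin-like proteins also restrain the co-activators that raise them.

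TEAD factors bind the short sequence GGAATG, and promoters of CCN2 and ANKRD1 are shown because these target genes differed in opposite directions between the groups and both carry copies of it. AXL, whose count hardly differed, is shown beside them. Each line holds the 250 bases before the gene's start from RefSeq on GRCh38.p14, read 5′ to 3′ on the gene's strand. Capitals mark GGAATG on either strand and TGANTCA, a looser form of the AP-1 core TGA(C/G)TCA with any base in the middle.
CCN2 (chr6:131951373-131951622, minus strand): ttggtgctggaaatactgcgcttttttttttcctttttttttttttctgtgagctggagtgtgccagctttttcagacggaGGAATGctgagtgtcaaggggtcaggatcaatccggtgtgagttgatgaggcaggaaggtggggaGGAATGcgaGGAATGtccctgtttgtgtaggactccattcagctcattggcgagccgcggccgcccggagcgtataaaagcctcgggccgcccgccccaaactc
ANKRD1 (chr10:90921088-90921337, minus strand): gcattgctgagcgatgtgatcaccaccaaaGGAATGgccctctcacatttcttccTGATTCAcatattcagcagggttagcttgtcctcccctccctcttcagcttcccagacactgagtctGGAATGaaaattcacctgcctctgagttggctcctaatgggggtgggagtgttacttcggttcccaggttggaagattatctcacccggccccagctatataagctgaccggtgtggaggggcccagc
AXL (chr19:41218973-41219222, plus strand): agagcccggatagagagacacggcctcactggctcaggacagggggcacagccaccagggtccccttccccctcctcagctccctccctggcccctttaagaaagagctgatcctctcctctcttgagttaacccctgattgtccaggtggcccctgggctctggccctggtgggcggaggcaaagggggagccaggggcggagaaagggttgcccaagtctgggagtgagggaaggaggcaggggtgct
The base after each window is the first base of CCN2-201, ANKRD1-201 and AXL-201, the transcripts that hold nearly all counts of these genes.

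The CCN2 promoter holds GGAATG 3 times, starting at positions -169, -104 and -95 from the start site. The ANKRD1 promoter holds it at -220 and -128, with 1 TGANTCA between them at -195 and no overlap of the motifs. That TGANTCA reads TGATTCA, so it matches the looser form and not the AP-1 core. Neither motif occurs in the AXL window shown, and the window of a second AXL start holds GGAATG once. With the first 50 bases after the start included, RefSeq promoter windows were found for 8 of the 10 genes, not for CCN1 and TEAD1. Windows of YAP1 and LATS2 and 1 window of AMOTL2 hold GGAATG once each, and no window of WWTR1 or AMOTL1 holds it. Of the 11 windows of these genes 6 hold GGAATG, against 4928 of all 35116 RefSeq windows of that length, and 1 holds TGANTCA, against 7.71%. WWTR1, AMOTL2 and AXL enter with more than 1 window. The genes were chosen as members and targets of the YAP-TEAD pathway, so these shares cannot test a surplus of the TEAD motif. A match of letters is a description and not a bound site.

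The study describes the 2 columns of a group as independent replicates. Over 12382 transcripts the variance of the difference between the EtOH columns was 0.505 times that of counting noise between independent samples (95% interval 0.492 to 0.517), and over 10611 transcripts that between the HgCl2 columns was 0.516 times (0.503 to 0.531; with 11962 transcripts, 31.9 between an EtOH and an HgCl2 column). The spread within a group was thus smaller than that of counting alone, and its columns were counted as 1 sample. Every difference given here is between 1 sample and 1 sample, without a replicate check and without a p-value, and 95% intervals are exact Clopper-Pearson intervals from mean counts that cover counting error only. The columns hold between 4720978 and 5053120 counts, and a transcript with 0 counts in a column may still make up to 0.594 to 0.635 CPM there (counts scaled to the column total, from 3 counts of that total).

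Few of the 58 transcripts were counted. A count was given to 18 of them in at least 1 column, and 9 passed the filter of a mean FPKM above 1 in at least 1 group and were compared. Among the transcripts that did not pass, the largest count in any column was 5. The low number goes with how much sequence a transcript has to itself. Of the 58 transcripts, 38 have a base that no other listed transcript covers, and 22 have at least 150 such bases in a row. Over all transcripts of the table, 35.8% of those with such a stretch have a count and they hold 95.6% of the counts, while 1.71% of transcripts without any base of their own have one. For a gene at or near 0, low expression and loss of reads that fit several transcripts cannot be told apart, and no absence is read from these counts.

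The co-activators differed in what could be seen of them. WWTR1, the gene for TAZ, was counted on its protein-coding transcript WWTR1-203 (chromosome 3, 149517235 to 149703273, minus strand), with 2830 and 2869 counts in EtOH, and 3795 and 3836 in HgCl2. The fold change was 1.48 (1.41 to 1.55), or 0.56 on the log2 scale, between 1 sample and 1 sample. In bulk RNA fewer cells of a kind and less RNA per cell cannot be told apart. WWTR1-203 has no base of its own in GENCODE 44, so how its counts were set apart from those of WWTR1-201, a coding transcript listed at 0, cannot be told here. WWTR1-207, which has no annotated coding sequence, had 0, 0, 5 and 5 counts. YAP1 gave almost no counts. Of its 11 transcripts 4 have a base of their own, and the longest stretch, of 555, lies in the retained intron YAP1-205. Among coding transcripts YAP1-203 has 232 such bases, YAP1-201 has 4 and YAP1-202 has 0. Summed over transcripts, the counts were 6 and 6 in EtOH and 3 and 3 in HgCl2. These were spread over YAP1-203, YAP1-205 and YAP1-206, none above 3 in a column, and no fold change is given for YAP1.

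TEAD1 encodes a TEAD factor that brings YAP and TAZ to DNA. Its coding transcript TEAD1-206 (chromosome 11, 12674421 to 12944737) had 62 and 57 counts in EtOH and 48 and 46 in HgCl2, a log2 fold change of -0.20 with an interval from -0.79 to 0.37. The HgCl2 columns are the lower ones, but the interval includes no difference. The retained intron TEAD1-202 had 6 and 11 counts against 2 and 2, a ratio of 0.271 whose interval runs from 0.0258 to 1.19. TEAD1-202 passed the FPKM filter through its EtOH values alone. Depth did not allow a difference to be detected in TEAD1 at either transcript.

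LATS2, the kinase that phosphorylates YAP and TAZ and is itself raised by them, was counted on LATS2-201 (chromosome 13, 20973036 to 21061586, minus strand). It had 613 and 616 counts in EtOH and 658 and 659 in HgCl2. The fold change was 1.18 (1.06 to 1.32), or 0.24 on the log2 scale (0.08 to 0.40), close to the median log2 fold change of 0.21 over the 2712 compared transcripts whose mean count was at least 200. AMOTL1 and AMOTL2, scaffold proteins that bind YAP and hold it outside the nucleus, gave no values to compare. The 5 transcripts of AMOTL1 had 0 counts in all 4 columns. The 2 with at least 150 bases of their own are the coding AMOTL1-201 and the retained intron AMOTL1-204. The coding transcripts AMOTL1-202 and AMOTL1-203 have 14 and 0 such bases. The 13 transcripts of AMOTL2 had 1, 1, 1 and 0 counts in sum.

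The secreted matricellular proteins CCN1 (also CYR61) and CCN2 (also CTGF) are the most used readouts of YAP and TAZ. CCN2-201 (chromosome 6, 131948176 to 131951372, minus strand) had 6999 and 7154 counts in EtOH and 13030 and 13160 in HgCl2. Its fold change was 2.04 (1.99 to 2.10), or 1.03 on the log2 scale, and 4.06% of the 2712 transcripts of at least 200 counts had a larger one. CCN1-201 (chromosome 1, 85580761 to 85583950, plus strand) had 4161 and 4200 counts in EtOH and 6965 and 6985 in HgCl2. The fold change of CCN1-201 was 1.84 (1.77 to 1.92), or 0.88 on the log2 scale, with 7.01% of those transcripts above it. WWTR1-203 had 20.2% of them above it, LATS2-201 46.7% and AXL-201 70.9%. This order of transcripts does not depend on the scaling between columns.

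ANKRD1 encodes a nuclear ankyrin repeat protein that responds to stretch and is another common YAP and TAZ target. Its single listed transcript ANKRD1-201 (chromosome 10, 90912096 to 90921087, minus strand) had 56 and 59 counts in EtOH and 27 and 18 in HgCl2. Counts were lower in HgCl2, in the opposite direction to CCN1 and CCN2. The fold change was 0.434 (0.258 to 0.721), or -1.21 on the log2 scale. Without the column HgCl2 replicate 2 it was -0.94 and no longer past 2-fold, and without HgCl2 replicate 1 it was -1.52. The HgCl2 columns held counts on 25432 and 25531 transcripts and the EtOH columns on 33148 and 33106, at totals that differ far less, so fewer transcripts of low count were seen in HgCl2. The part of this in the low values of ANKRD1-201 and TEAD1-202, and of STK3, STK4, BIRC5 and KRT8 given further on, was not tested.

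AXL, a receptor tyrosine kinase bound by GAS6, was the member with the most counts in EtOH. AXL-201 (chromosome 19, 41219223 to 41261766, plus strand) had 7875 and 7925 counts in EtOH and 6958 and 6880 in HgCl2, a log2 fold change of -0.05 (-0.09 to -0.00). Between settings this value went from -0.22 to 0.13, so no direction is given for AXL. The retained intron AXL-205 had 10, 11, 11 and 6 counts, and its groups overlap.

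**Figure D1:**
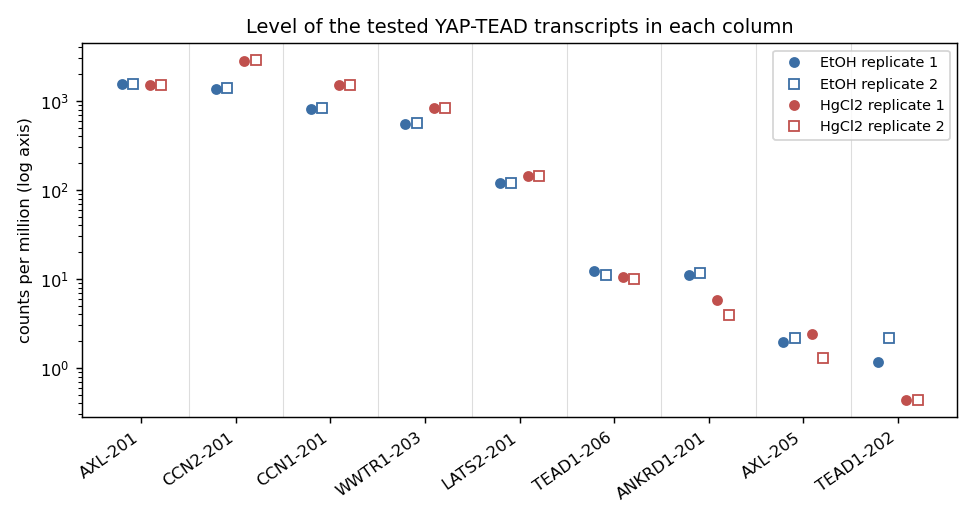
CPM (log axis, TMM-scaled library sizes) of the 9 compared YAP-TEAD transcripts in each column, with EtOH in blue and HgCl2 in red, replicate 1 filled and replicate 2 open. CCN2-201, CCN1-201 and WWTR1-203 are higher and ANKRD1-201 is lower in HgCl2, and AXL-201 hardly differs. The 2 columns of a group count as 1 sample.

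Of the 9 compared transcripts 1, CCN2-201, was higher in HgCl2 by at least 2-fold, against 19.2% of all 17547 compared transcripts, and 2, ANKRD1-201 and TEAD1-202, were at least 2-fold lower, against 34.1% (either direction 3 of 9, against 53.3%). TEAD1-202 passed the FPKM filter through EtOH alone, so that it had to be the lower there, and its interval includes no difference. Most of the transcripts behind these shares have few counts. Among the 8502 with at least 10 counts in every column 15.0% were higher and 9.70% lower (24.7% in all), and 1 of the 7 members there was higher and 1 lower. Among the 2712 with a mean of at least 200 counts the shares were 4.65% and 2.03% (6.67% in all), and of the 5 members of that depth CCN2-201 was past 2-fold. The median log2 fold change of the 9 members was -0.05, and that of all compared transcripts was -0.21. Where every column has at least 10 counts the medians were 0.24 for the members and 0.19 for all.

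**Figure D2:**
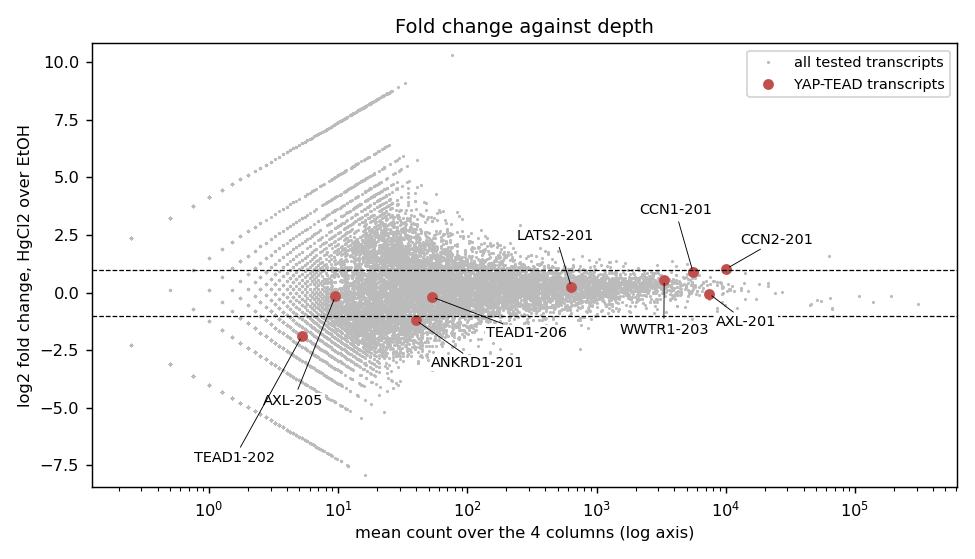
Log2 fold change (HgCl2 over EtOH) against the mean count over the 4 columns (log axis) for the 17547 compared transcripts in grey and the 9 YAP-TEAD transcripts in red, with dashed lines at 2-fold. CCN2-201 and CCN1-201 lie at the upper edge of the transcripts of like depth, while TEAD1-202, ANKRD1-201 and AXL-205 lie in the wide part at low counts.

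Where CCN2-201 stood relative to 2-fold depended on the scaling between the columns. On the log2 scale it was 1.07 with the size factors of DESeq2, 0.98 with total counts alone, 0.86 with TMM over transcripts of at least 10 counts in every column, and 1.21 on the deposited FPKM scale with a pseudocount of 1. Over all 10 settings that used all columns, CCN1-201 went from 0.71 to 1.06, WWTR1-203 from 0.39 to 0.74, LATS2-201 from 0.07 to 0.42 and ANKRD1-201 from -1.38 to -0.83. The values of these 5 transcripts kept their sign in all 10 settings, though that of LATS2-201 came close to no difference.

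**Figure D3:**
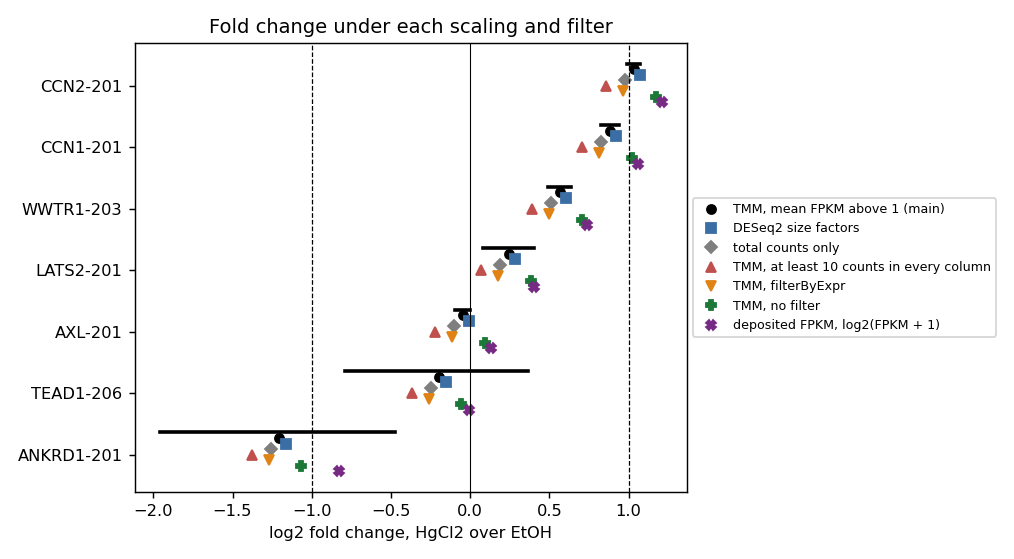
Log2 fold change (HgCl2 over EtOH) of 7 members under 7 settings of scaling and filter, with dashed lines at 2-fold and a black bar for the 95% counting interval of the main setting. The settings move the members together, except that ANKRD1-201 moves further with log2(FPKM + 1), from -1.21 to -0.83. CCN2-201 lies on either side of 2-fold while its distance to AXL-201 stays nearly the same.

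Ratios of counts within a column need no scaling between columns. For each count on AXL-201 there were 0.889 and 0.903 counts on CCN2-201 in EtOH, and 1.87 and 1.91 in HgCl2, a change of 2.11-fold (2.02 to 2.21, Woolf interval from mean counts). CCN1-201 went from 0.528 and 0.530 to 1.001 and 1.02 per AXL-201 count, 1.91-fold (1.81 to 2.003), and WWTR1-203 changed 1.53-fold (1.44 to 1.62). LATS2-201 changed 1.22-fold (1.09 to 1.37) and ANKRD1-201 0.447-fold (0.274 to 0.728) against AXL-201. AXL-201 was taken as the base after its values were seen, and a ratio shows that the members changed unequally, not that AXL was constant.

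Members also differed from each other. CCN2-201 gained on CCN1-201 by 1.11-fold (1.06 to 1.16) and on WWTR1-203 by 1.38-fold (1.31 to 1.46). WWTR1-203 gained on LATS2-201 by 1.25-fold (1.11 to 1.41). Of the 10 ratios computed, that between the target genes CCN2 and ANKRD1 changed most. There were 125.0 and 121.3 counts on CCN2-201 for each count on ANKRD1-201 in EtOH, and 482.6 and 731.1 in HgCl2, a change of 4.73-fold (2.90 to 7.71).

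**Figure D4:**
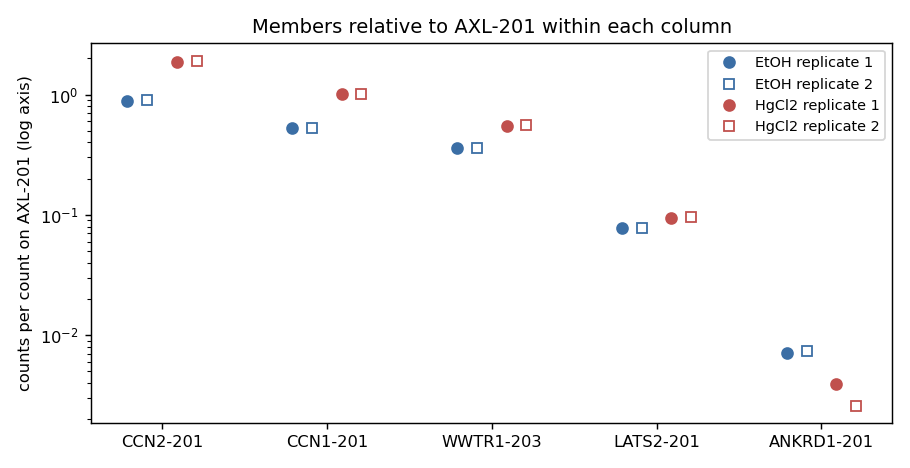
Counts of 5 members per count on AXL-201 within each column (log axis), with EtOH in blue and HgCl2 in red. CCN2-201, CCN1-201 and WWTR1-203 stand higher in both HgCl2 columns, LATS2-201 slightly higher, and ANKRD1-201 lower.

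Per length, CCN2-201, CCN1-201, AXL-201, WWTR1-203, LATS2-201 and ANKRD1-201 followed each other in this order in both groups. The deposited FPKM values were 551 in EtOH and 1274 in HgCl2 for CCN2-201, 334 and 696 for CCN1-201, and 305 and 334 for AXL-201. WWTR1-203 followed with 103 and 173, then LATS2-201 with 20.2 and 27.0, and ANKRD1-201 with 5.29 and 2.59. The other 3 transcripts lay near the filter and changed places, with TEAD1-202 at 1.36 and 0.401, TEAD1-206 at 1.15 and 1.14 and AXL-205 at 1.12 and 1.13. Neighbouring CCN1-201 and AXL-201 had column values from 333 to 336 and from 304 to 306 in EtOH, while the columns of TEAD1-206 and AXL-205 overlapped in both groups. FPKM divides by the whole transcript, whereas the bases that could be counted differ. CCN2-201 has 2143 of its 2338 bases to itself, ANKRD1-201 all of its 1790 and LATS2-201 5118 of 5546. AXL-201 has 1484 of 4717, nearly all of them (1472) after its stop codon, and TEAD1-206 544 of 9417. The length implied by the FPKM values matched GENCODE 44 for 8 of these 9 transcripts, and for ANKRD1-201 it was 1979 in place of 1790. LINC01013 overlaps the span of CCN2, LATS2-AS1 that of LATS2 and WWTR1-AS1 that of WWTR1. Genes listed without a symbol overlap the spans of AXL-201, the base of the ratios above, and of TEAD1-206. The study calls its RNA-seq directional, but the library kit and steps in its methods name nothing that marks strand. Whether strand was kept, and whether counting used it, is not settled by the sources used here. Without strand, reads from such partners cannot be told apart.

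The upstream kinase cassette was followed with 20 genes, among them STK3 and STK4 (the MST kinases), SAV1, LATS1, MOB1A, MOB1B, NF2 and kinases of the TAO and MAP4K families, which activate LATS. Of their 28 compared transcripts 3 were at least 2-fold higher in HgCl2 (19.2% of all compared) and 8 were lower (34.1%). Most of these 8 passed the FPKM filter through EtOH alone, so that they had to be the lower there. Of the 16 whose columns all reach 10 counts, 2 were higher (15.0% of all) and 1 lower (9.70%), so none of these counts stood above the shares over all transcripts, and the median log2 fold change was 0.31. The transcript with the most counts was MOB1A-201, of the LATS co-activator MOB1, with 6214 and 6173 counts in EtOH and 7940 and 7989 in HgCl2 (log2 fold change 0.51, 0.46 to 0.55). LATS1-207, of the partner kinase of LATS2, had 945 and 965 against 1372 and 1359 (0.66, 0.54 to 0.78), and TAOK1-201 had 3521 and 3518 against 4272 and 4237. At a mean of 30 counts or more in a group, TAOK2-203 (36, 44, 106 and 98 counts), WWC2-201 (16, 16, 43 and 35) and the retained intron MAP4K3-210 (8, 7, 32 and 43) were at least 2-fold higher, WWC2-201 passing the FPKM filter through HgCl2 alone. MAP4K5-201, with 86, 109, 39 and 38 counts, was the lower one at -1.19 (-1.76 to -0.64). NF2, the tumour suppressor merlin that recruits LATS, had 1, 3, 0 and 0 counts in sum. Summed over transcripts, STK4 had 50, 45, 13 and 10 counts (log2 fold change -1.90) and STK3 had 25, 20, 5 and 14 (-1.09). Of the 16 genes whose summed mean reached 10 counts in a group, 2 were at least 2-fold higher and 4 lower. No share over all genes is given beside these.

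Partners of YAP and TEAD, upstream adhesion proteins and members of STRIPAK, a phosphatase complex that inactivates the MST kinases, made up a list of 19 genes. TEAD2 and TEAD4 had 0 counts in all columns and TEAD3 had 1 count in EtOH replicate 1, so TEAD1 was the TEAD gene that could be compared. Of the 14 compared transcripts of the list 2 were at least 2-fold higher (19.2% of all compared) and 5 lower (34.1%), shares near those over all transcripts, with none of these 7 reaching a mean of 30 counts in either group. The 2 higher ones passed the FPKM filter through HgCl2 alone and most of the 5 lower ones through EtOH alone, which fixed their direction. The transcript with the most counts was STRN-201, of the STRIPAK scaffold striatin, with 2609 and 2653 against 3303 and 3251 counts (0.46, 0.39 to 0.53). AJUBA-201, of a LIM protein that holds LATS at cell junctions, had 81 and 93 against 130 and 145 (0.80, 0.41 to 1.21). VGLL4-211, of a cofactor that competes with YAP for TEAD, had 83 and 94 against 104 and 102, with an interval of its log2 fold change from -0.07 to 0.78.

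Other target genes of YAP and TAZ were followed with 22 genes. Of their 19 compared transcripts 5 were at least 2-fold higher (19.2% of all compared) and 6 lower (34.1%), near the shares over all transcripts. Of the 10 whose columns all reach 10 counts 2 were higher (15.0% of all) and 1 lower (9.70%), with a median log2 fold change of -0.10. The lower one at that depth was THBS1-201, of the matricellular protein thrombospondin-1, with 265 and 261 counts in EtOH and 43 and 60 in HgCl2 (-2.21, -2.65 to -1.76). All others of the 6 lower transcripts passed the FPKM filter through EtOH alone, so that they had to be the lower there. CRIM1-201, with the most counts of the list, had 4206 and 4226 against 3227 and 3144 (-0.26, -0.33 to -0.19), and PTPN14-201, of a phosphatase that binds YAP, had 1218 and 1214 against 1006 and 1017 (-0.12, -0.24 to 0.00). At a mean of 30 counts or more in a group, NT5E-202 (38, 28, 97 and 104 counts), CRIM1-202 (4, 4, 54 and 55) and PTPN14-204 (19, 13, 34 and 39) were at least 2-fold higher. CRIM1-202 and PTPN14-204 passed the FPKM filter through HgCl2 alone, so that they had to be the higher there. IGFBP3, FOXF2 and GADD45A had 0 counts in all columns, and BIRC5 had 12, 16, 0 and 0 in sum.

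SRF and its MRTF co-factors respond to actin dynamics as YAP and TAZ do and share some targets with them. SRF-201, of the transcription factor SRF, had 131 and 125 counts in EtOH and 45 and 42 in HgCl2, a log2 fold change of -1.41 (-1.93 to -0.89). Of 17 compared transcripts of the 12 SRF and MRTF genes 4 were at least 2-fold higher (19.2% of all compared) and 7 lower (34.1%). Some on either side passed the FPKM filter through 1 group alone, which fixed their direction. Of the 8 whose columns all reach 10 counts 1 was higher (15.0% of all) and 3 were lower (9.70%), which describes these 8 and sets the list apart by no test. ACTN1-201, with the most counts of the list, had 240 and 234 against 155 and 162 (-0.44, -0.73 to -0.14), and the retained intron ACTN1-216 had 65, 60, 24 and 21. Transcripts of the tropomyosin gene TPM1 lay on both sides: TPM1-207 had 26, 24, 66 and 56 counts, while TPM1-232 had 114, 115, 32 and 24 and TPM1-225 had 38, 36, 14 and 8.

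**Figure D5:**
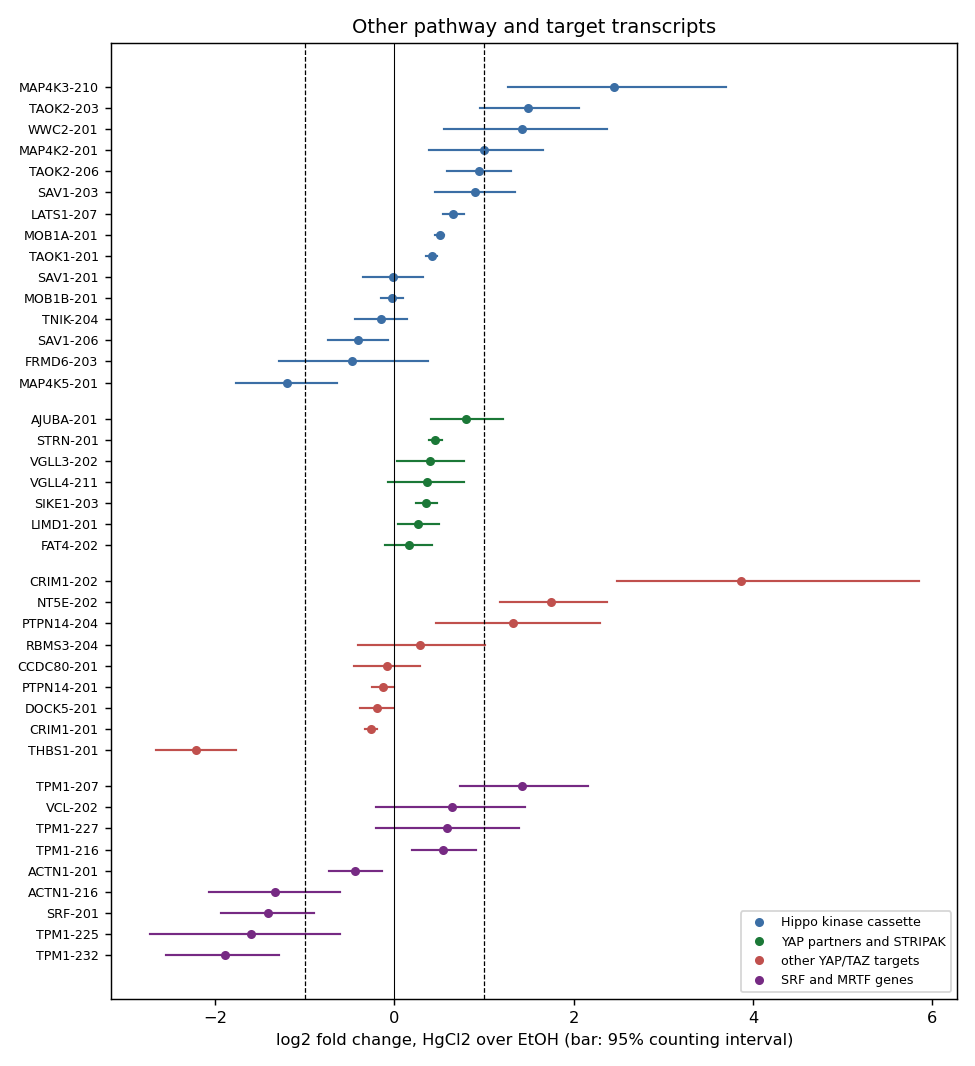
Log2 fold change (HgCl2 over EtOH) with its 95% counting interval for the compared transcripts of 4 gene lists whose mean reaches 30 counts in a group and that are reported here, with dashed lines at 2-fold. The YAP partners lie between 0.16 and 0.80, the kinase cassette spreads from -1.19 to 2.44, and the other YAP/TAZ targets reach from THBS1-201 at -2.21 to CRIM1-202 at 3.87.

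Markers of the cell line were checked by their counts summed over transcripts, and VIM, KRT8, KRT18 and ZEB1 had counts in all columns. VIM, the mesenchymal filament protein, had 620, 628, 501 and 511, and KRT8, an epithelial keratin, had 53, 58, 4 and 4. KRT18, another epithelial keratin, had 23, 24, 18 and 31, and ZEB1, a mesenchymal transcription factor, had 2, 3, 3 and 2. Markers of blood, endothelial, liver, alveolar and fibroblast cells had 18 and 22 counts in EtOH and 4 and 6 in HgCl2, from 2 of 5 genes, with PTPRC, ALB and SFTPC at 0. Their part in the results was not tested.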

How the data were processed

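RNA-seq of H1299 cells was taken from deposited tables with 2 columns for each group, assigned by the group and replicate number in their names. Per the labels, reads were trimmed with Trim Galore and aligned with STAR 2.5.4b to GRCh38. The authors counted reads per transcript of an Ensembl annotation with Rsubread and deposited these counts without normalization. The counting options are not given in the sources used here. From these counts the authors computed the deposited FPKM with DESeq2 1.26.0, whose size factors use median ratios.

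Log2 fold changes were computed with edgeR 4.0.16 (glmQLFit, TMM, R 4.3.3) over the whole table, for 17547 transcripts whose mean FPKM exceeded 1 in either group. As the columns of a group differed by less than counting noise, no p-value is given, and called means at least 2-fold in either direction. CPM use TMM-scaled library sizes. DESeq2 1.42.0 served as an alternative. Tables and figures were made in Python 3.11.15. The steps were tested on simulated data. GENCODE 44 on GRCh38 gave names and positions for 98.3% of the identifiers and is newer than the annotation the authors used, so bases of a transcript's own may differ from theirs.

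The named members are all 10 genes, with the transcript of the most counts and every compared transcript with a mean of at least 30 counts in a group. TEAD1-202, AXL-205 and transcripts under the filter, and of the lists LATS1-207, TAOK1-201, AJUBA-201, VGLL4-211, PTPN14-201, the sums of STK3 and STK4 and genes at or near 0, were named after their values were seen. The lists gave transcripts at least 2-fold higher or lower with that mean and the transcript of the most counts. A target transcript and a cell line marker are not reported here. Members and lists were chosen with earlier results of these data known. The alternatives changed the filter, scaling, pseudocount and tool, added the replicate block and left out each column. The choice of at least 200 counts, of the ratio to AXL-201 and of the lists' counts at the fold changes of the edgeR fit was made after seeing the data.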

Additional observations from a re-analysis of the deposited data

How the results depend on the processing

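Numbers of transcripts past 2-fold moved with the filter and the scaling. Of the member transcripts 0 were at least 2-fold higher with at least 10 counts in every column, with filterByExpr and with total counts only, 2 with log2(FPKM + 1) and log2(FPKM + 0.1), and 6 with no FPKM filter, against 1. At least 2-fold lower were 1 with at least 10 counts in every column, 1 with filterByExpr, 0 with log2(FPKM + 1), 4 with no FPKM filter and 0 with a mean of at least 200 counts, against 2, and leaving out a column gave from 1 to 2.

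In the lists, with no FPKM filter the kinase cassette had 11 higher and 32 lower transcripts (3 and 8), the YAP partners 7 and 17 (2 and 5), the other targets 9 and 33 (5 and 6) and the SRF and MRTF genes 9 and 19 (4 and 7). With TMM over at least 10 counts in every column, 1 kinase cassette transcript was lower, 0 partners were higher and 0 lower, 2 targets higher and 1 lower, and 1 SRF or MRTF transcript higher and 3 lower, the same numbers as at that depth with the fold changes reported. With filterByExpr the partners had 1 and 2 and the targets 2 lower. With log2(FPKM + 1) 4 kinase cassette, 1 partner and 3 SRF or MRTF transcripts were lower and 3 targets higher, and with log2(FPKM + 0.1) 6 kinase cassette transcripts were higher. The filters change how many transcripts are compared by construction. For the other settings the cause was not tested. The median of the members went from -0.10 with total counts only to 0.24 with no FPKM filter, so no direction is given for it.

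The fit with the replicate block gave -0.05 for the median of the members and 1 higher and 2 lower member transcripts, as without the block. Same-numbered columns deviated with r = 0.02 across 8720 transcripts. As the columns of a group differ by less than counting noise, this value cannot show whether the numbers pair the samples. Over the alternatives for single transcripts, 104 values stayed inside the counting interval and 24 moved outside it, and for gene sums 60 and 10, with no sign change of a value past 2-fold. Depth limits ANKRD1, TEAD1 and AXL-205. For YAP1, AMOTL1 and AMOTL2 low expression and overlap of annotated transcripts cannot be told apart.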
